A study of Caenorhabditis elegans with 83 samples.

Results

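The X chromosome of Caenorhabditis elegans was examined here as one block: the protein-coding genes that the WBcel235 annotation places on X, without names that start with col-, nhr-, clec-, str-, sri-, acr-, lgc-, glr-, ceh- or cyp- and without sdc-1. The rule used position, biotype and name and no measured value. It found 2551 genes among the 20449 gene rows of the SX1263 libraries and 2513 among the 20390 gene rows of the EG6089 libraries, with 2511 in both. Before those names were left out, 2662 and 2624 protein-coding genes lay on X.

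In somatic cells of hermaphrodites a dosage compensation complex lowers the expression of both X chromosomes, and genes of the intestine, muscle and nervous system are common on X. In the germline the X chromosomes carry repressive histone marks, are largely silent in meiotic cells and become active in late oocytes, so that germline-expressed genes are scarce on X. Worm small RNAs of the 22G class are made against many germline transcripts, and others against dsRNA and foreign sequence. MET-2 is the methyltransferase that adds most mono- and dimethylation of histone H3 at lysine 9, and SET-25 adds trimethylation.

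Small RNAs of whole day 1 adults were sequenced in 83 libraries. Background, genotype, generation and treatment define 28 groups, each of 3 libraries except 1 of 2. The SX1263 background (59 libraries) held 4 genotypes at P0 and F3: wild type, the single mutants met-2(n4256) and set-25(n5021), and their double mutant met-2(n4256);set-25(n5021). At F15 it held wild type and met-2(n4256). The EG6089 background (24 libraries) held wild type and met-2(n4256);set-25(n5021) at P0 and F3. SX1263 and EG6089 are GFP reporter strains, and the animals called wild type carry the reporter of their background too. P0 animals ate either bacteria that make dsRNA against GFP (treated) or empty-vector bacteria (control), while descendants of both ate ordinary bacteria. P0 and F3 therefore differ in food as well as in generation. All grew at 20 °C. Each mutant is 1 allele per gene. The labels do not say whether libraries of a group came from separate cultures, and the p-values then measure only the spread between these libraries.

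The files held 3583283 to 18225929 gene counts per library in SX1263 and 2134929 to 6102965 in EG6089, and whether both sets were counted alike is not known. Counts that HTSeq assigned to no gene made up 50.8 to 62.0% of records in SX1263 and 29.2 to 42.4% in EG6089. At met-2 itself, on chromosome III, libraries with met-2(n4256) held 63.6 to 124 counts scaled to 1000000 per library (CPM) and the others 272 to 456 in SX1263, with no overlap; in EG6089 the ranges were 45.1 to 93.5 and 182 to 389. At set-25 in SX1263 the ranges with and without set-25(n5021) were 96.5 to 207 and 168 to 299.9 CPM, which overlap, and in EG6089 they were 45.1 to 84.2 and 150.01 to 264 CPM, with no overlap. The levels of small RNAs that map to a gene do not report whether its product is made, and for set-25 in SX1263 they do not separate the genotypes. In whole animals, fewer cells of a type and fewer small RNAs per cell cannot be told apart.

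The X-linked genes took a small share of the gene counts. In SX1263 wild-type controls the share was 6.56, 6.74 and 6.14% at P0, 6.25, 6.58 and 6.52% at F3, and 6.33, 5.79 and 6.63% at F15. In met-2 controls it was 6.20, 5.36 and 4.96% at P0, 5.91, 4.78 and 5.39% at F3, and 3.85, 3.14 and 3.51% at F15. The met-2 libraries lay below every wild-type library at F3 and at F15, while at P0 replicate 1 overlapped wild type. The difference of the means was -0.973 percentage points at P0, -1.09 at F3 and -2.75 at F15.

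In set-25 controls the X share was 6.65, 6.68 and 6.27% at P0 and 6.20, 6.5 and 6.47% at F3, overlapping wild type. In the SX1263 met-2;set-25 double mutant the share was 7.17, 6.20 and 5.81% at P0 and 6.08, 6.51 and 6.89% at F3, which also overlapped wild type. In EG6089 the same genotype held 5.41, 6.47 and 5.02% at P0 and 5.03, 5.65 and 4.78% at F3, against 7.08, 8.02 and 7.45% and 7.18, 7.22 and 6.96% in its own wild type. The EG6089 double mutant therefore lay below wild type in every library, by 1.89 and 1.97 percentage points of the mean, and the SX1263 double mutant did not. No test was made of the share, and 3 libraries against 3 could not give an exact two-sided p below 0.1. The 2 backgrounds were counted as separate sets, and their difference was not tested.

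Treated and control groups overlapped in X share for every genotype, generation and background. Treated met-2 libraries held 5.97, 5.21 and 5.22% at P0, 4.90, 4.56 and 5.47% at F3 and 3.86, 3.24 and 3.87% at F15, beside the control values above. One treated SX1263 double-mutant library at F3, replicate 2, held 4.58%, against 6.34 and 6.45% in the other two. On the autosomes at F15, chromosome II also took less in met-2 than in wild type, 18.7 against 19.4% on average. Chromosome III took 20.5 against 18.3%, IV 16.8 against 15.1% and V 12.99 against 12.2%. The libraries of the genotypes overlapped on none of these 4 chromosomes, and on chromosome I, with 22.5 and 22.1%, they did.

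**Figure D1:**
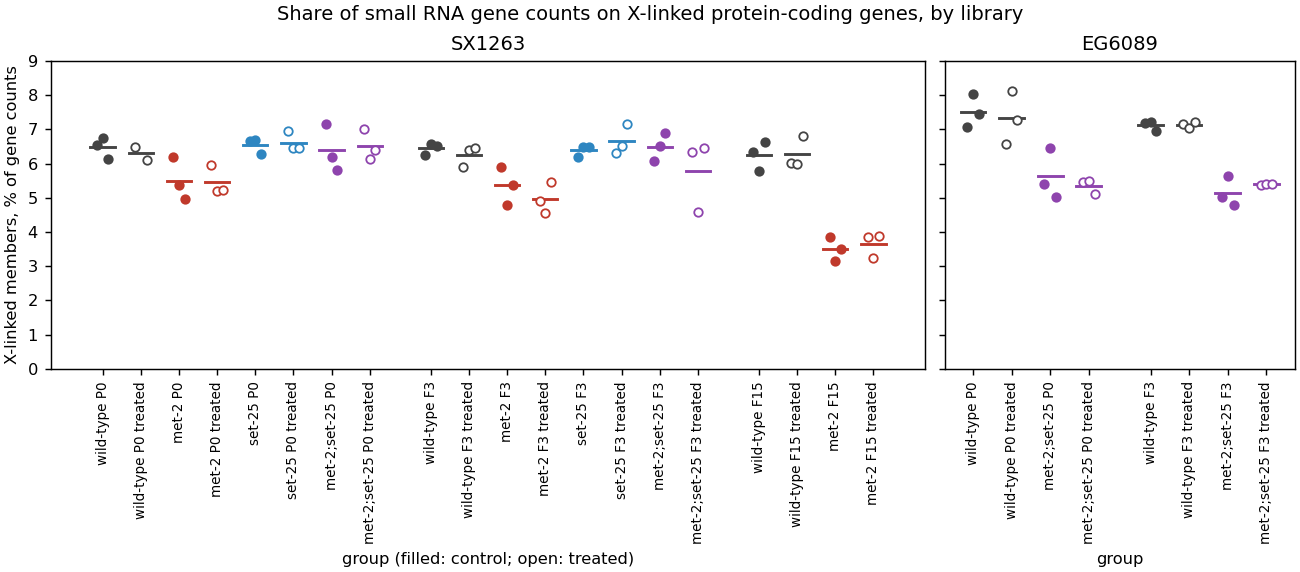
Share of gene counts on X-linked protein-coding genes (percent, vertical axis) in each library, by background, genotype and generation; filled points are control libraries, open points treated ones, and bars the group means. The lowest values are those of met-2 at F15, between 3.14 and 3.87%, and the EG6089 double mutant lies below its wild type at both generations.

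Few genes held much of the signal. The 10 X-linked genes that were most abundant in wild type held 30.2 to 42.7% of the X counts of a SX1263 library and 41 to 56.8% in EG6089. Between 1477 and 1993 of the X-linked genes had at least 1 count in a SX1263 library. Counts were not divided by gene length, so levels are compared below between samples of 1 gene and not between genes.

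The fall of the X share at F15 was spread over many genes with a few large contributions. Of the X-linked genes, 968 had a lower mean share of counts in met-2 than in wild type and 1192 a higher one, but the falls summed to -3.13 percentage points and the rises to 0.383. The 10 largest falls summed to -1.23 points, and 17 genes carried 50% of the falls. At F3 the falls and rises were -1.69 and 0.597 points, and at P0 -1.57 and 0.593. In the SX1263 double mutant at F3 they nearly cancelled, at -1.09 and 1.14, while in the EG6089 double mutant at F3 they were -2.27 and 0.299.

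The most abundant X-linked genes led the F15 fall. For got-1.2 (an aspartate aminotransferase, chrX:16791347-16793126 in WBcel235), met-2 libraries at F15 held 4320.5, 2146 and 2890.2 CPM and wild type 6579.6, 5399.5 and 8645 CPM. All 3 met-2 values lay below the wild-type ones (log2 change -1.14 ± 0.28 (SE), adjusted p = 0.00975), whereas at P0 and F3 the log2 changes of -0.50 and -0.56 did not pass the test. CPM values of single genes here and below are TMM-scaled, and a call means an adjusted p of edgeR's quasi-likelihood test below 0.05 over all genes tested.

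For pks-1 (a polyketide synthase gene, chrX:5413810-5441961), met-2 libraries held 1051, 1025 and 871 CPM at P0, 1442, 776 and 1220.3 at F3 and 245, 165 and 352 at F15. Wild type held 1793, 2761 and 2559.8, then 2388, 2382 and 2517, then 1903, 1797 and 2349 CPM. The 2 genotypes did not overlap at any of the 3 generations and the gap was widest at F15 (log2 change -1.27, -1.08 and -2.99, adjusted p = 0.000906, 0.000859 and 6.55e-05). In the SX1263 double mutant at F3 the gene stood at 2383, 3195 and 2906 CPM and was not called (log2 change 0.22, adjusted p = 0.437). In the EG6089 double mutant at F3 it held 989, 1074 and 862 CPM against 1505, 1367 and 1226 in wild type and was called lower (log2 change -0.49, adjusted p = 0.00414).

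Among the other abundant genes, his-24 (a linker histone H1 variant) held 1646, 1714 and 2209 CPM in met-2 at F15 and 3347, 2935 and 4424 in wild type, without overlap, and was called only at F15 among the 3 met-2 comparisons (log2 change -0.94, adjusted p = 0.01). M02F4.1 was lower in met-2 at all 3 generations (log2 change -0.66, -0.64 and -1.18), and so was T22B2.2 (-0.46, -0.54 and -0.81). At F15 the calls also took in C44C10.5 (-1.33), F02C12.3 (-1.08), jmjd-3.1, a histone H3 lysine 27 demethylase gene (-1.0), and dot-1.5 (-1.03). F59C12.4, the remaining gene of the 10, was called in none of the 3, and replicate 1 of every SX1263 P0 control group held more of it than replicates 2 and 3.

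**Figure D2:**
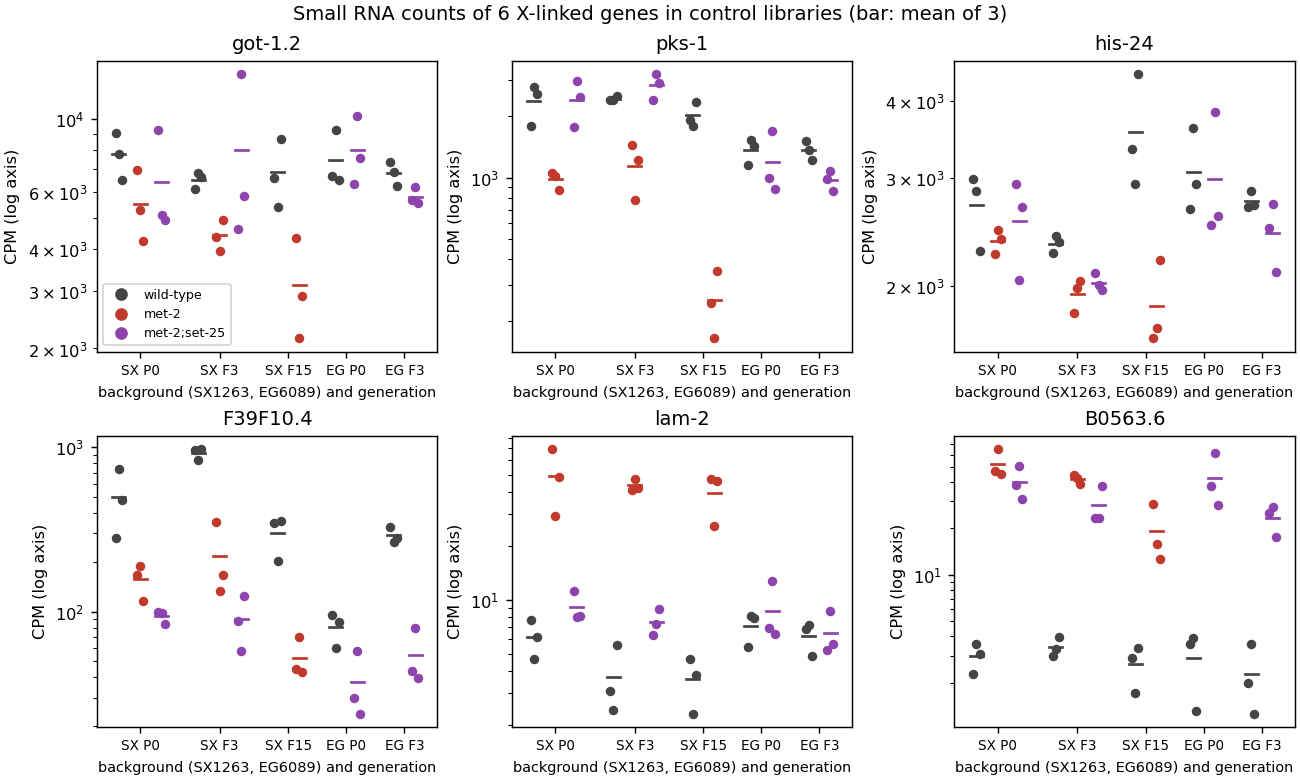
Levels of got-1.2, pks-1, his-24, F39F10.4, lam-2 and B0563.6 (CPM, TMM-scaled, log axis) in the control libraries of wild type, met-2 and met-2;set-25, by background and generation; each point is 1 library. pks-1 falls to 165 to 352 CPM in met-2 at F15, while lam-2 and B0563.6 sit above wild type in every met-2 library.

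Gene by gene, the X chromosome had calls in both directions. Of 2551 X-linked genes, 1261 passed the filter on low counts at P0, 1114 at F3 and 949 at F15 in SX1263, and 815 and 794 of 2513 did so at P0 and F3 in EG6089. The other X-linked genes were not tested. A gene can pass the filter through the mutant libraries alone, so the counts of calls describe the genes tested and not the whole chromosome.

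In met-2 at P0, 203 of 1261 X-linked genes were called higher and 144 lower, or 16.1 and 11.4%, beside 13.5% and 9.93% of all genes tested. At F3 the counts were 267 and 147 of 1114 (24 and 13.2%) beside 17.9% and 10.3%. At F15 they were 194 and 279 of 949 (20.4 and 29.4%) beside 19.1% and 17.4%. Lower calls thus outnumbered higher ones at F15, the reverse of P0 and F3. The share of X-linked genes called lower at F15 was above that of each autosome, which ran from 13.5 to 19.1%. Without met-2 replicate 2 the lower calls at F3 fell to 96, and with only the groups compared in the fit the higher calls at P0 fell to 133. The sum of 15 autosomal sperm genes was 248, 353 and 276 CPM in met-2 at P0 against 148, 107 and 104 in wild type, 232, 324 and 344 against 74.3, 88.3 and 78.2 at F3, and 199, 115.5 and 213 against 92.9, 89.4 and 101 at F15. Its part in the X result was not tested.

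The median log2 change of the X-linked genes was 0.19 at P0, 0.28 at F3 and -0.07 at F15, and that of all genes tested was -0.01, 0.03 and -0.01. At F15 the X-linked distribution was wide on its lower side: its quartiles were -1.17 and 0.75, and 27.6% of the genes fell by more than 1 on the log2 scale, beside 13.3% of all genes tested.

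The largest gains named in met-2 were in genes that had few counts in wild type. The naming rule ranks by log2 change and sets a minimum level only for the higher group, so it favours such genes. It also takes only called genes whose groups do not overlap, so separate groups in genes it named are no further evidence. F23A7.5, a gene of unnamed product at chrX:16228922-16237185, held 14.5, 13.1 and 13.6 CPM in met-2 at P0 and 0.583, 0.612 and 0.33 in wild type (log2 change 4.70 ± 0.44 (SE), adjusted p = 4.22e-07). B0563.6 (chrX:9137702-9145715) held 47, 64.8 and 45.1 against 2.27, 3.57 and 3.08 CPM (log2 change 4.15 ± 0.32 (SE), adjusted p = 4.31e-08). Both kept every met-2 library above every wild-type library at P0 and F3, and their F3 log2 changes were 4.37 and 3.61.

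Other genes of known product were named by the same rule of size and separation. lam-2, the gamma subunit of laminin in basement membranes, held 69.2, 29.5 and 48.7 CPM in met-2 against 7.69, 4.69 and 6.16 in wild type at P0, 40.9, 47.4 and 42.1 against 3.11, 2.42 and 5.55 at F3 and 47.2, 25.8 and 45.8 against 4.65, 2.31 and 3.81 at F15. The groups were apart at each generation (log2 change 2.98, 3.57 and 3.47, adjusted p = 8.44e-05, 1.28e-07 and 0.000146). The cadherin gene cdh-9 held 3.32, 6.61 and 11.7 CPM against 0.408, 0.408 and 0.33 at P0 and 40.4, 23.6 and 26.4 against 0.194, 0.868 and 0.897 at F15 (log2 change 5.40 ± 0.66 (SE), adjusted p = 0.000206). At F3 its met-2 libraries spread from 0.764 to 7.81 CPM. The gene of the leucine-rich repeat protein LRON-1 held 37.1, 12.7 and 10.9 CPM against 2.8, 2.85 and 1.87 at P0 (log2 change 3.0).

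cca-1, a T-type calcium channel subunit, had log2 changes of 2.98, 3.0 and 4.26 at P0, F3 and F15, with 35.8, 17.5 and 16.2 CPM in met-2 and 1.36, 0.868 and 1.35 in wild type at F15. plc-1, a phospholipase C, held 4.74, 5.58 and 9.17 CPM against 0.249, 0.454 and 0.521 at F3 (log2 change 3.98 ± 0.47 (SE), adjusted p = 5.15e-06). apl-1, related to the amyloid precursor protein, held 14.5, 8.93 and 14 against 0.994, 1.06 and 1.21 CPM at F3 (log2 change 3.50 ± 0.39 (SE), adjusted p = 2.08e-06). All 3 of these were above wild type in each met-2 library named here, as the rule required. At F15, bar-1, a beta-catenin of Wnt signalling, held 11.6, 12.2 and 21 CPM against 0.581, 0.289 and 0.897 (log2 change 4.58 ± 0.57 (SE), adjusted p = 0.000196), and the tyrosine aminotransferase gene tatn-1 9.04, 7.09 and 10.6 against 1.55, 0.723 and 0.561 (log2 change 3.29). The log2 change of plc-1 at F15 was 3.24.

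The largest loss in met-2 at P0 was in T08D2.4 (chrX:177396-177856). It held 0.295, 0.384 and 0.291 CPM at P0 against 11.1, 15.1 and 10.9 in wild type (log2 change -5.21 ± 0.68 (SE), adjusted p = 1.61e-05), and at F15 it had 0 counts in all 3 met-2 libraries against 8.33, 7.66 and 11.4 CPM. With a floor of 3 counts over the met-2 group it was at least 50.3-fold lower at F15. rpl-11.2, a ribosomal protein gene with a close copy elsewhere in the genome, held 6.34, 3.38 and 2.7 CPM against 118, 48.9 and 62 at P0 (log2 change -4.20 ± 0.82 (SE), adjusted p = 0.000907). C45B2.6 held 21.4, 22 and 13.3 against 134, 163 and 119 at P0 and 29.6, 14.1 and 21.2 against 120.1, 129 and 137 at F3 (log2 change -2.87 and -2.57). C56G3.2 (-2.75), abhd-3.2 (-2.71) and dot-1.2 (-2.61) made up the rest of the 6 largest falls at P0.

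At F3 the falls were led by T08D2.4 (-4.52) and F52D2.12, which held 195, 74.4 and 75.8 CPM in met-2 against 855, 911 and 1065 in wild type (log2 change -3.04 ± 0.32 (SE), adjusted p = 1.40e-06). The log2 changes of Y73B3B.1, F48E3.9 and abhd-3.2 were -2.67, -2.58 and -2.38. At F15, syg-2, an immunoglobulin superfamily gene of synapse placement, held 1.71, 3.35 and 4.49 CPM against 71.3, 69.4 and 68.1 (log2 change -4.45 ± 0.34 (SE), adjusted p = 1.09e-05), and Y7A5A.1 12.3, 12.2 and 18.5 against 239.8, 246 and 257 (log2 change -4.11 ± 0.22 (SE), adjusted p = 1.80e-06). Y73B3B.3 held 0.512, 0.197 and 2.87 against 26.5, 20.5 and 29.7 CPM. The wild-type groups were tight for these 3 genes. They were not for dot-1.2, named for its likeness to the histone H3 lysine 79 methyltransferase DOT1, which held 40.1, 597 and 50.8 CPM in wild type at F15 (log2 change -5.25), nor for F22F1.2, with 1.02, 1.18 and 1.62 CPM in met-2 and 5.62, 493 and 4.15 in wild type. The call of F22F1.2 (log2 change -7.02 ± 1.90 (SE), adjusted p = 0.0183) had a log2 change of -1.92 without wild-type replicate 2, and it was lost without any one of the met-2 libraries, at adjusted p of 0.056 to 0.061.

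**Figure D3:**
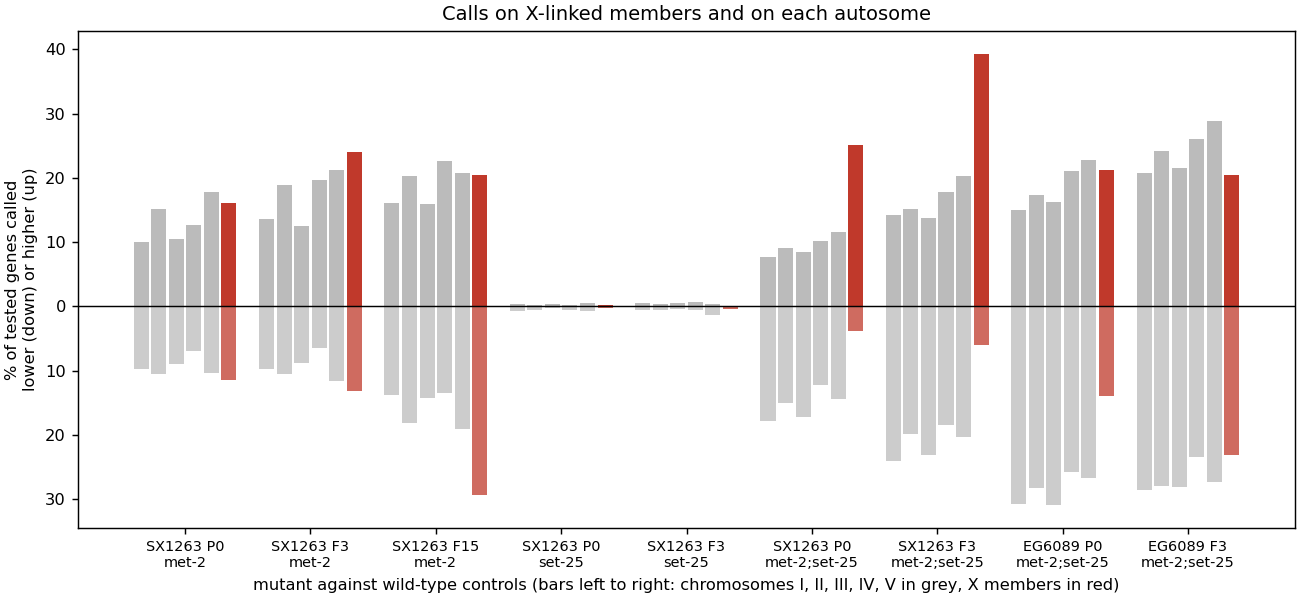
Percent of tested genes called higher (upward bars) and lower (downward bars) in each of the 9 genotype comparisons, by chromosome, with autosomes in grey and the X-linked genes in red. The X bars stand furthest apart from the autosomes in the SX1263 double mutant, where 39.3% were called higher and 6.01% lower at F3.

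Loss of set-25 alone changed few X-linked genes. At P0, 2 of 1261 were called higher and 3 lower (0.159 and 0.238%), beside 0.379% and 0.577% of all genes tested, and at F3 1 of 1114 was called higher and 4 lower (0.0898 and 0.359%) beside 0.498% and 0.612%. These shares were near or under the background. At P0 the replicate numbers paired the libraries. A fit with the replicate block called 13 X-linked genes higher and 10 lower, and 269 of all 12657 genes in either direction. Medians were 0.09 and 0.12 at P0 and F3, beside 0.01 for all genes at both.

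F39C12.1, F52D2.12, cebp-1 and tag-123 were called at both generations. F39C12.1 held 94.1, 149 and 124 CPM against 234.7, 350.3 and 247 at P0 (log2 change -1.18 ± 0.18 (SE), adjusted p = 0.00145) and 109.9, 178 and 133 against 354, 355 and 356 at F3 (log2 change -1.34 ± 0.24 (SE), adjusted p = 0.00592). F52D2.12 held 264, 262 and 369 CPM against 855, 911 and 1065 at F3 (log2 change -1.66 ± 0.30 (SE), adjusted p = 0.00777) and had a log2 change of -1.06 at P0. cebp-1, a bZIP transcription factor of the C/EBP family, held 11.9, 14.8 and 11.5 against 40.9, 52.2 and 41.7 CPM at F3 (log2 change -1.82 ± 0.38 (SE), adjusted p = 0.02) and had a log2 change of -1.27 at P0. In each of these the mutant libraries lay below all wild-type libraries. tag-123 rose, with log2 changes of 1.02 and 1.06 and 19.5, 26.9 and 17.9 against 10.9, 7.72 and 12.1 CPM at F3. F53B3.5 was called higher at P0 (log2 change 1.07 ± 0.21 (SE), adjusted p = 0.0117) and adm-4, an ADAM metalloprotease gene, lower at F3 (log2 change -0.91 ± 0.21 (SE), adjusted p = 0.0415). Leaving out 1 library ended each of these 10 calls but that of F39C12.1 at P0, which was lost with only the 2 groups in the fit, at an adjusted p of 0.088.

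X-linked genes had mostly higher calls in the SX1263 double mutant. At P0, 317 of 1261 were called higher and 48 lower (25.1 and 3.81%), beside 11.2% and 14.1% of all genes tested. At F3, 438 of 1114 were called higher and 67 lower (39.3 and 6.01%) beside 18.6% and 19.7%. On single autosomes at F3, 13.7 to 20.3% of autosomal genes were called higher and 18.4 to 24% lower. The F3 median was 0.59 on the log2 scale against 0.04 for all genes, and 77.8% of the X-linked genes were above 0. At P0 the median was 0.48 against 0.01. At P0 the replicate numbers paired these libraries. With the replicate block 443 X-linked genes were called higher and 84 lower, and 5096 of all 12657 genes were called in either direction. Without the block, the lower calls at P0 fell to 31 without wild-type replicate 2 and to 29 without double-mutant replicate 3. The sperm genes, which were high in met-2, summed to 55.2, 40.7 and 68.6 CPM in this genotype at F3, below the wild-type sums, although the median log2 change of the 10 tested was 1.45, with msp-142 called higher and spe-41 lower, and at P0 it was 0.83. Of the 13 oocyte genes 5 were called lower at F3. Their part in the X result was not tested.

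The rule of size and separation also named the genes that follow. snx-1, a sorting nexin of endosomes, held 119, 99.2 and 91.4 CPM against 11.9, 14.7 and 15.4 at P0 (log2 change 2.89 ± 0.30 (SE), adjusted p = 1.85e-06), and R193.2 held 57.1, 52 and 41.5 against 8.16, 6.93 and 6.16 (log2 change 2.82 ± 0.20 (SE), adjusted p = 2.31e-08). atg-16.1, an autophagy gene, held 10.1, 11.2 and 15.9 against 1.75, 1.94 and 1.87 CPM (log2 change 2.74). The groups stood apart in all 3, as the rule required. At F3, pept-1, the peptide transporter of the intestine, held 16.5, 18.7 and 20.3 against 1.99, 1.36 and 2.26 CPM (log2 change 3.30 ± 0.39 (SE), adjusted p = 4.40e-06). ncr-1, a Niemann-Pick C1 homologue of cholesterol transport, held 5.24, 9.36 and 4.51 against 0.373, 1.06 and 0.521 CPM (log2 change 3.23), and oac-14, an O-acyltransferase homologue, 3.97, 6.59 and 5.24 against 0.124, 0.303 and 0.174 (log2 change 4.6 ± 0.68 (SE), adjusted p = 4.57e-05). F23A7.5 rose at both generations (log2 change 5.08 and 4.29), as did R08E3.1 at F3 (3.41), F59F5.3 at F3 (3.64), and B0563.6 and bar-1 at P0 (3.76 and 2.54).

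The falls in the SX1263 double mutant were fewer but large. F39F10.4 held 87.3, 57.9 and 125 CPM at F3 against 964, 843 and 972 in wild type (log2 change -3.35 ± 0.36 (SE), adjusted p = 1.98e-06), and F52D2.12 held 36.5, 57.6 and 39.6 against 855, 911 and 1065 (log2 change -4.42 ± 0.35 (SE), adjusted p = 4.08e-08). Every mutant library was far under wild type for both, and the rule required groups without overlap. At P0, F52D2.12 held 84.1, 53.2 and 41.8 against 338, 501 and 376 CPM. T08D2.4 had log2 changes of -3.41 and -4.75 at P0 and F3, F47E1.1 of -1.81 and -2.71. F20B6.9 (-3.61) and C11G6.2 (-3.29) completed the list at F3, and F39F10.4 (-2.41), M6.4 (-1.80) and abhd-3.2 (-1.79) that at P0.

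The double mutant was also set against met-2 in the same fits, a comparison chosen after the data were seen. At P0, 195 of 1261 X-linked genes were higher in the double mutant and 35 lower (15.5 and 2.78%), beside 6.31% and 10.3% of all genes tested. Replicate numbers paired these libraries too. With the replicate block the counts were 310 and 57, and 3898 of all 12657 genes were called in either direction. At F3 the counts were 224 and 39 of 1114 (20.1 and 3.50%) beside 9.24% and 15.6%. On the autosomes at F3, 7.20 to 8.32% were called higher and 15.9 to 18% lower. The medians of the X-linked genes were 0.28 and 0.29, those of all genes -0.02 and -0.05. With only the 2 groups in the fit the F3 counts were 137 and 17, of 1034 genes called in all. At P0 they were 121 and 19, of 909.

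Some genes that were low in met-2 were not low in the double mutant. rpl-11.2 held 104, 130.4 and 86.9 CPM in the double mutant and 9.01, 5.72 and 2.33 in met-2 at F3 (log2 change 4.24 ± 0.80 (SE), adjusted p = 0.000925), and at P0 the log2 change was 5.23. vhl-1, the von Hippel-Lindau tumour suppressor homologue that marks the hypoxia factor HIF-1 for degradation, held 114.6, 101 and 91.8 against 19.7, 8.93 and 9.3 (log2 change 3.02 ± 0.39 (SE), adjusted p = 2.47e-05), with a log2 change of 3.0 at P0. C56G3.2 was higher at P0 (3.13) and W06D11.1 at F3 (2.98). In the other direction, lam-2 held 6.35, 7.28 and 8.9 CPM in the double mutant and 40.9, 47.4 and 42.1 in met-2 at F3 (log2 change -2.52 ± 0.30 (SE), adjusted p = 8.22e-06), plc-1 0.635, 0 and 0.487 and 4.74, 5.58 and 9.17 (log2 change -3.82 ± 0.48 (SE), adjusted p = 1.71e-05), and the netrin gene unc-6 1.11, 0 and 0.975 and 6.26, 3.77 and 6.02 (log2 change -2.69). At P0, lam-2 (-2.42), the aquaporin gene aqp-7 (-2.18) and cdh-9 (-2.07) were the lower ones named, and the call of cdh-9 was lost with only the 2 groups in the fit.

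In EG6089 the double mutant had a different balance. At P0, 173 of 815 X-linked genes were called higher and 114 lower (21.2 and 14%), beside 18.5% and 27.4% of all genes tested. At F3, 162 of 794 were called higher and 183 lower (20.4 and 23%) beside 23.7% and 27.1%, close to the background in both directions. Medians were 0.20 at P0 and 0.10 at F3, beside -0.11 and -0.01 for all genes. With RLE scaling the median of all genes at P0 moved from -0.11 to 0.06 and the P0 counts to 202 higher and 80 lower, so directions at P0 are relative to that shift.

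The genes with the largest rises in EG6089 were partly those of SX1263. bar-1 held 9.26, 7.47 and 7.82 CPM against 0.361, 0.72 and 0.254 at F3 (log2 change 4.21 ± 0.42 (SE), adjusted p = 1.57e-06) and B0563.6 25, 27.5 and 17.5 against 1.99, 3.6 and 1.27 (log2 change 3.39 ± 0.32 (SE), adjusted p = 8.28e-07). F23A7.5 had 0 counts in all 3 wild-type libraries at P0 and 4.82, 5.71 and 5.48 CPM in the double mutant, at least 21-fold higher with a floor of 3 counts over the wild-type group. nep-22, a neprilysin-family peptidase, held 15.8, 20.6 and 17.4 against 1.64, 1.95 and 1.1 CPM at P0 (log2 change 3.51 ± 0.42 (SE), adjusted p = 7.12e-06), and tatn-1 13.3, 11.8 and 14 against 1.99, 0.36 and 2.29 at F3 (log2 change 2.94). None of these groups overlapped, as the naming rule required. The log2 changes of nep-22, R08E3.1 and pept-1 at F3 were 3.19, 3.1 and 2.92, and those of B0563.6, bar-1, F14B8.5 and tatn-1 at P0 were 3.89, 3.54, 3.32 and 3.30.

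Falls in EG6089 at F3 included T08D2.4, with 0, 0.393 and 0.909 CPM against 15.5, 16.2 and 16.8 (log2 change -4.78). cebp-1 held 4.03, 5.5 and 3.46 against 28.9, 44.6 and 47 CPM (log2 change -3.25 ± 0.30 (SE), adjusted p = 7.74e-07) and C45B2.6 27.8, 24.8 and 23.3 against 139.6, 191 and 153 (log2 change -2.68 ± 0.16 (SE), adjusted p = 1.00e-08). All 3 were below wild type in each library, as the naming rule required. Y73B3B.3 (-3.90), lido-6 (-2.89) and flwr-1 (-2.85) were the others named at F3. At P0, suca-1, a succinyl-CoA ligase subunit of the citric acid cycle, held 16, 34.3 and 6.4 against 148, 141.8 and 129 CPM (log2 change -2.88 ± 0.43 (SE), adjusted p = 8.94e-05), followed by T08D2.4 (-4.70), the F-box gene fbxb-71 (-2.71), Y73B3B.3 (-2.55), F20B6.9 (-2.46) and F54F7.6 (-2.35). The call of F20B6.9 was lost without any one of 4 libraries, double-mutant replicates 1 and 3 and wild-type replicates 1 and 2.

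The same genotype could go opposite ways in the 2 backgrounds. Of 794 X-linked genes tested at F3 in both, 320 were called higher in the SX1263 double mutant and 162 in the EG6089 one, with 130 shared, which is 40.6% of the SX1263 calls and 80.2% of the EG6089 ones. Lower calls numbered 54 and 183, with 43 shared (79.6 and 23.5%). Over all 8723 genes tested in both, the shared calls were 63.6 and 49.1% of the higher ones and 78.4 and 67% of the lower ones. A further 38 X-linked genes (4.79%) were called higher in SX1263 and lower in EG6089, and 0 the other way, beside 48 (0.55%) and 28 (0.321%) of all genes. suca-1 held 95.9, 113 and 123 CPM against 44.1, 46.8 and 44.4 in SX1263 (log2 change 1.29, adjusted p = 0.000823) and 21.7, 37.7 and 27.5 against 101, 101 and 116 in EG6089 (log2 change -1.88, adjusted p = 0.000206). rpl-11.2 had log2 changes of 2.08 and -2.53 (adjusted p = 0.0274 and 0.000402), F54F7.6 of 1.35 and -1.54, and vhl-1 of 1.01 and -2.16. The libraries of the 2 backgrounds were counted as separate sets, and the difference between them was not tested.

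Some X-linked genes were called the same way in met-2 at P0, F3 and F15 and in the double mutant at F3 in both backgrounds. The F3 comparisons of SX1263 share their wild-type libraries, so each comparison's own values are given. Those chosen by the smallest of their 5 changes included lin-14, the heterochronic regulator of larval timing, which held 5.46, 2.76 and 6.11 CPM in met-2 at F15 against 0.387, 0.434 and 0.336 in wild type and had log2 changes of 2.4, 2.33 and 3.58 in met-2 and of 3.0 and 3.99 in the SX1263 and EG6089 double mutants. With lin-14 stood F23A7.5, B0563.6, oac-14, bar-1 and mlck-1, a myosin light chain kinase gene, whose met-2 and wild-type libraries overlapped at P0, where its call (adjusted p = 0.0499) was lost with no filter and without single libraries. Among the lower genes, F39F10.4 held 43.5, 79.8 and 39.6 CPM against 326, 267 and 282 in EG6089 at F3 and had log2 changes of -1.66, -2.09, -2.52, -3.35 and -2.46 in the order given. sec-16A.2, a copy of the scaffold of endoplasmic reticulum exit sites, had -1.72, -2.07, -1.69, -1.67 and -1.57. F47E1.1, F48E3.6, T08D2.4 and Y73B3B.3 were the other 4, with log2 changes at F15 of -2.47 for F47E1.1 and -3.05 for F48E3.6.

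Few X-linked genes were called between generations of SX1263 wild type. From P0 to F3, 0 of 1078 X-linked genes were called by edgeR, beside 0.052% of all genes tested in either direction. At an unadjusted p below 0.05 there were 152, beside 1669 of all 11549 genes. DESeq2 called 11 higher and 8 lower, of 252 genes called in all. From F3 to F15, 130 were at an unadjusted p below 0.05, beside 1612 of all genes. DESeq2 called 4 higher and 9 lower, of 162 genes called in all. By edgeR 1 was called lower, beside 0.052%. That gene, T25G12.11, held 106, 89.1 and 129.5 CPM at F15 and 420.0, 319 and 397 at F3 (log2 change -1.81 ± 0.26 (SE), adjusted p = 0.0137), and its call was lost without any one of 5 of the 6 libraries. Median changes were -0.08 and -0.00, beside -0.09 and 0.01 for all genes.

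In the met-2 mutant, many X-linked genes were lower at F15 than at F3. Of 1078 genes, 11 were called higher and 203 lower (1.02 and 18.8%), beside 5.33% and 9.69% of all genes tested, and the median was -0.32 against -0.00. Without met-2 F3 replicate 1, 116 were called lower and 4 higher, and the higher calls were also 4 without met-2 F3 replicate 3 or F15 replicate 1. lron-1 held 1.15, 1.32 and 1.55 CPM at F15 and 17, 7.45 and 13.8 at F3 (log2 change -3.24 ± 0.48 (SE), adjusted p = 0.000601). H39E20.1 held 3.13, 3.6 and 9.29 and 70.0, 21.5 and 57.4 CPM (log2 change -3.21 ± 0.48 (SE), adjusted p = 0.000698), and F59D12.2 9.87, 3.22 and 5.68 and 73.1, 30.1 and 66.8 (log2 change -3.16). F15 libraries lay below all F3 libraries for these 3, as the naming rule required. Among the 11 that rose, cdh-9 held 39, 22.7 and 25.3 CPM at F15 and 0.738, 7.87 and 1.6 at F3 (log2 change 3.08 ± 0.66 (SE), adjusted p = 0.00593), dot-1.3 27.3, 22.1 and 26.1 and 7.38, 10.41 and 6.92 (log2 change 1.61), and egl-36, a Shaw-type potassium channel gene, had a log2 change of 1.40.

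The change of the met-2 effect between generations was also tested. From P0 to F3, 0 of 1078 X-linked genes were called by edgeR, beside 0.026% of all genes, and 0 by DESeq2. At an unadjusted p below 0.05 there were 33, beside 341 of all 11549 genes. From F3 to F15, 0 genes had a higher effect and 44 a lower one (4.08%), beside 0.104% and 1.46% of all genes tested, and the median difference was -0.32 against -0.04. DESeq2 gave 2 and 101, of 518 genes called in all. The count of 44 depended on single libraries: it was 89 without met-2 F3 replicate 2, and 13 to 29 without any one of 8 others, wild-type F3 replicates 1, 2 and 3, met-2 F3 replicates 1 and 3, wild-type F15 replicates 1 and 3 and met-2 F15 replicate 2. Y73B3A.1 held 67.3, 34.2 and 45.3 CPM in met-2 and 82.5, 84.2 and 92.7 in wild type at F3, then 8.72, 6.25 and 12.9 and 105, 132 and 127 at F15 (log2 change -2.88 ± 0.34 (SE), adjusted p = 0.000688). lron-1 was above wild type at F3 and below it at F15, with 1.15, 1.32 and 1.55 CPM in met-2 and 3.09, 3.91 and 2.64 in wild type at F15 (log2 change -3.17 ± 0.65 (SE), adjusted p = 0.0223). T03G6.3 held 57.6, 10.41 and 36.3 CPM in met-2 at F3 and 4.94, 3.41 and 3.96 at F15, against 21.6, 33.6 and 28.6 and 26, 18.7 and 25.5 in wild type (log2 change -2.82 ± 0.65 (SE), adjusted p = 0.0434). The call of Y73B3A.1 held without each library in turn. That of lron-1 was lost without any one of 5 libraries, and that of T03G6.3 without any one of 11 of the 12.

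Across the 3 met-2 comparisons, which share no library, 945 X-linked genes were tested in each. Of these, 104 were called higher at all 3 generations, which is 61.9% of the 168 higher at P0, 45.2% of the 230 at F3 and 54.2% of the 192 at F15. Lower at all 3 were 96, which is 70.6% of 136 at P0, 69.1% of 139 at F3 and 34.4% of 279 at F15. Of all 10387 genes tested at the 3 generations, 757 were higher at all 3, which is 57% of those higher at P0, 43.2% at F3 and 41.1% at F15, and 667 were lower at all 3, or 61.4, 61.6 and 35.9%. Of the X-linked lower calls, 129 of 279 at F15 (46.2%) were called lower at that generation alone. At P0 these were 10 of 136 (7.35%) and at F3 9 of 139 (6.47%). Over all genes the same shares were 43.6% at F15, 16.3% at P0 and 9.60% at F3, so the larger share at F15 was seen over all genes too. Of the X-linked higher calls at F15, 26 of 192 (13.5%) were made at that generation alone, beside 26.9% over all genes.

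In EG6089 wild type, 46 of 806 X-linked genes were higher at F3 than at P0 and 56 lower (5.71 and 6.95%), beside 1.18% and 3.45% of all genes tested. RLE scaling gave 39 and 30. Without P0 replicate 2 the counts were 21 and 6, and without any one F3 library they were 20 to 29 and 7 to 16, and without P0 replicate 3 the lower calls were 36. The largest rises included ucr-2.2, of the ubiquinol-cytochrome c reductase complex, which held 7.18, 5.85 and 9.63 CPM at F3 and 1.15, 1.31 and 0.731 at P0 (log2 change 2.83 ± 0.44 (SE), adjusted p = 0.00382), and sdha-1, the flavoprotein of succinate dehydrogenase, 12.2, 20.5 and 11 and 4.02, 2.29 and 3.65 (log2 change 2.09), a call lost without F3 or P0 replicate 2. F52D2.6 held 396, 277 and 275 and 68.3, 58.5 and 54.3 (log2 change 2.39 ± 0.19 (SE), adjusted p = 1.15e-05). Those that fell included pmpl-1, with 22, 24.4 and 23.6 CPM at F3 and 64.6, 122 and 68.9 at P0 (log2 change -1.87 ± 0.28 (SE), adjusted p = 0.00366), C10E2.1 (-2.19) and F59F5.7 (-2.08). The calls of C10E2.1 and F59F5.7 were lost without any one of 5 and of 4 libraries, and that of C10E2.1 also with RLE scaling.

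Anti-GFP treatment, averaged over the genotypes of each fit, gave 0 calls among X-linked genes with edgeR in all 5 comparisons. The background was 0.0158% of all genes in SX1263 at P0, 0.0262% at F3 and 0.00937% at F15, and 0.011% and 0.0112% in EG6089 at P0 and F3. At an unadjusted p below 0.05 there were 34 of 1261, 22 of 1114 and 17 of 949 X-linked genes in SX1263 at P0, F3 and F15. Over all genes there were 228 of 12657, 305 of 11439 and 254 of 10675. In EG6089 there were 61 of 815 and 32 of 794 X-linked genes at P0 and F3, beside 576 of 9079 and 295 of 8943 genes. DESeq2 called 3 X-linked genes higher in EG6089 at P0, of 13 genes called in all, and 0 in the others. Medians ran from -0.13 in EG6089 at P0 to 0.07 in EG6089 at F3. In EG6089 at P0, treated wild-type replicate 1 held 39 CPM of vit-2 and 13.4 of vit-5, against 3.14 and 0.785 in replicate 2 and 11 and 3.76 in replicate 3.

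Calls of X-linked genes differed by abundance. The X-linked genes of each comparison were put in 3 equal classes of mean CPM, and autosomal protein-coding genes were placed in the same classes by the same CPM limits, so that most autosomal genes fell in the highest one. In met-2 at F3, 114 of 372 X-linked genes in the highest class were called lower (30.6%), against 9.22% of autosomal genes above the same limit. In the lowest class 98 of 371 were called higher (26.4%), against 32.7% of autosomal genes, and 2.43% were called lower, against 9.39%. At F15, 171 of 317 genes in the highest class were called lower (53.9%), against 15.9% of autosomal genes, and 25% in the lowest class were called higher, against 40.9%. More calls of higher small RNA levels among the scarcer genes were thus seen on the autosomes too. Scarce genes can pass the filter through the mutant libraries alone, and the classes use the mean over all libraries of the fit. The balance of higher and lower calls in the lowest class can therefore be set in part by the filter, and is a description only. In the EG6089 double mutant at F3, 128 of 265 genes in the highest class were called lower (48.3%) against 27.7%. In the SX1263 double mutant at F3 the lower calls were 2.16, 4.04 and 11.8% of X-linked genes from the lowest to the highest class, against 10.8, 17.9 and 25.6% of autosomal genes. Its higher calls were 36.7, 44.2 and 37.1%, against 19.8, 18.2 and 14.4%, and the median log2 changes of the X-linked genes were 0.88, 0.62 and 0.31. Abundant genes have more counts and smaller changes are called in them, and the part of depth in these shares was not tested.

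**Figure D4:**
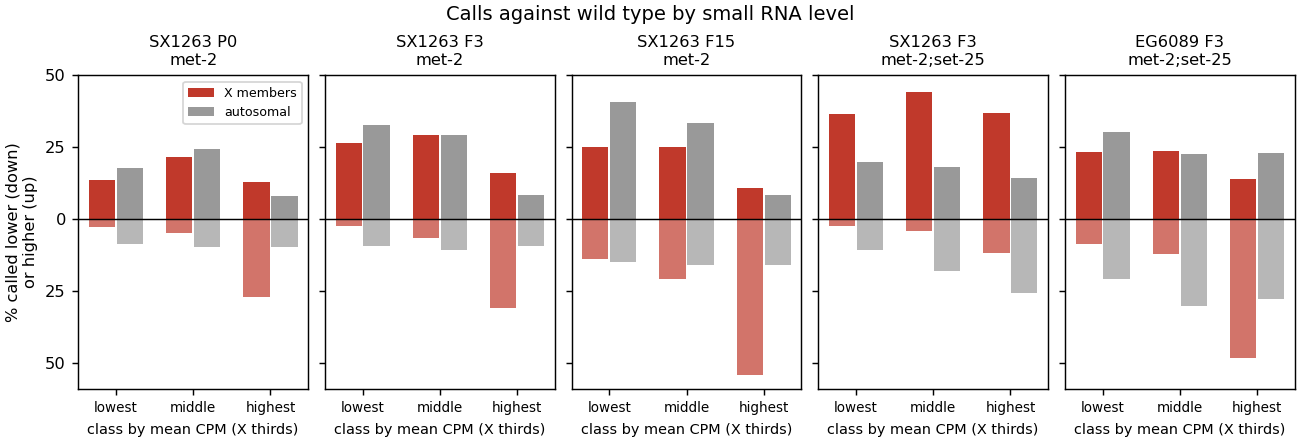
Percent of tested genes called higher or lower (vertical axis) by class of mean CPM (horizontal axis) in 5 genotype comparisons, with X-linked genes in red and autosomal protein-coding genes, placed by the CPM limits of the X classes, in grey. In the highest class, 53.9% of X-linked genes were called lower in met-2 at F15, against 15.9% of autosomal ones.

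Calls differed along the chromosome. X was cut into 5 segments of equal length. In met-2 at F3, 15.5% of tested genes were called higher in the left end segment, 35.2% in the middle and 17.9% in the right end segment, and 22, 7.76 and 16.2% lower. At F15, 36.9, 16.8 and 41.6% were called lower in those segments and 12.6, 31.4 and 11.9% higher. In the SX1263 double mutant at F3 the higher calls were 30.6, 51.6 and 26%, and in the EG6089 one 14.4, 26.8 and 11.6%. On autosomes in met-2 at F3, 10.7, 25.3 and 10.39% were called higher in the same segments and 19.1, 3.27 and 18.9% lower. At F15 the autosomal values were 12, 26 and 14% higher and 27.7, 8.85 and 23.6% lower. Higher calls were thus most frequent in the middle of X in met-2 and the SX1263 double mutant. In met-2 at F3 and F15 this held on the autosomes too. In the EG6089 double mutant at F3 the inner segments of X differed little, with 26.6, 26.8 and 26% called higher. In the SX1263 double mutant the autosomal segments differed little, with 17.3, 15.1 and 15% called higher.

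**Figure D5:**
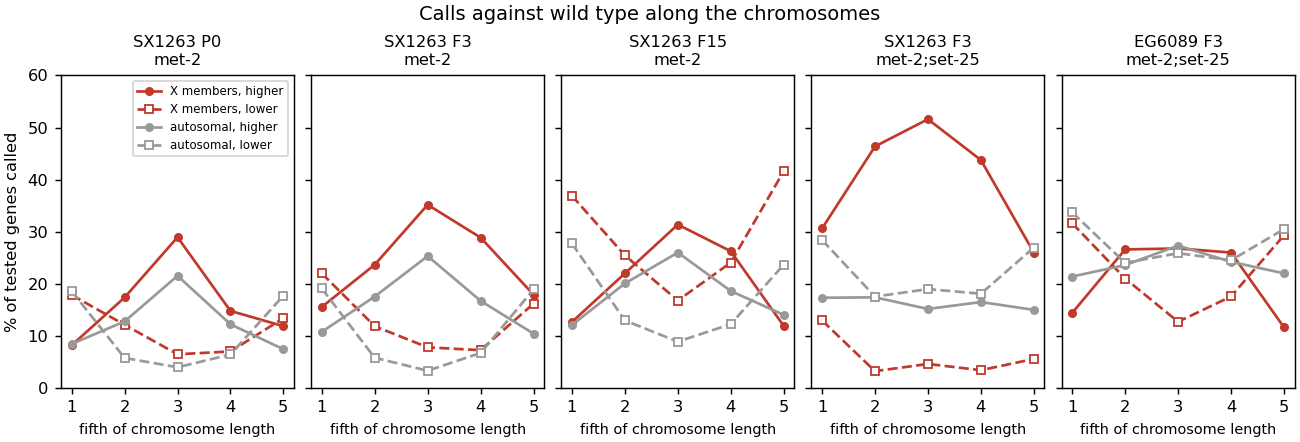
Percent of tested genes called higher (solid) and lower (dashed) in 5 segments of equal chromosome length, from the left end to the right end, for X-linked genes (red) and autosomal protein-coding genes (grey) in 5 genotype comparisons. On X the higher calls peak in the middle segment in the SX1263 double mutant at F3, at 51.6%, and in met-2 at F15. The lower calls are most frequent at the ends in met-2 at F15.

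Lists of X-linked genes by role are set beside the share of all genes called in the same comparison, which for higher and lower calls was 13.5 and 9.93% in met-2 at P0, 17.9 and 10.3% at F3 and 19.1 and 17.4% at F15, 11.2 and 14.1% in the SX1263 double mutant at P0 and 18.6 and 19.7% at F3, and 18.5 and 27.4% in EG6089 at P0 and 23.7 and 27.1% at F3. These lists are short, and nothing particular to a list can be read from counts near those shares. The genes lin-14, lin-15B, hpl-1 and let-2 each stand in 2 lists and are counted in both. Of the 14 yolk and intestine genes, those tested were called higher and never lower in met-2 and in both double mutants. In met-2, 5 of 8 tested were higher at P0, 4 of 8 at F3 and 6 of 7 at F15, with medians of 1.02, 1.11 and 2.36. Of 8 tested in the SX1263 double mutant 8 were higher at both P0 and F3 (medians 1.69 and 2.27), and in EG6089 7 of 7 at P0 and 6 of 6 at F3 (2.67 and 2.04). Genes with few counts in wild type pass the filter only where they are high, so the list is a description. vit-5, a vitellogenin of the yolk, held 18.4, 20.1 and 22.2 CPM in the SX1263 double mutant at F3 against 4.23, 4.24 and 5.38 (log2 change 2.13 ± 0.31 (SE), adjusted p = 3.69e-05), and 12.1, 11.4 and 11.6 against 2.89, 0.72 and 2.29 in EG6089 (log2 change 2.43 ± 0.38 (SE), adjusted p = 9.54e-05). vit-2 held 19.7, 15.3 and 16 against 7.58, 3.24 and 4.57 CPM in EG6089 at F3 (log2 change 1.65). The vitellogenin genes vit-3, vit-4 and vit-5 are near-identical, and reads may be split between them.

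Of the 10 chromatin regulators on X, met-2 had 2 higher and 2 lower at P0, 3 and 2 at F3 and 3 and 5 at F15, the SX1263 double mutant 3 and 0 at both generations, and EG6089 4 and 2 at P0 and 3 and 2 at F3. One of the higher calls in each of these was lin-14, which is known for larval timing and is listed with the timing genes too. lsd-1, a histone demethylase gene, was higher in all 7 of these comparisons, with 15, 13.8 and 15.7 CPM in met-2 at F3 against 4.6, 5.6 and 4.69 (log2 change 1.58 ± 0.20 (SE), adjusted p = 1.06e-05). lin-15B, a synMuv B gene that limits germline gene expression in the soma, held 62.4, 71.5 and 37.7 CPM in met-2 at F15 against 205, 279 and 294 (log2 change -2.18 ± 0.21 (SE), adjusted p = 4.89e-05). In the SX1263 double mutant at F3 it stood at 182, 251 and 258 CPM and was not called (log2 change 0.22, adjusted p = 0.323), and in EG6089 it was lower at F3 (log2 change -0.87). lin-15A was lower in met-2 at P0, F3 and F15 (-1.46, -1.39 and -2.24).

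Of the 7 small RNA and RNAi factors, the calls were 1 higher and 1 lower in met-2 at P0, 0 and 2 at F3, and 1 and 2 of 6 tested at F15, then 0 and 1 in the SX1263 double mutant at P0 and at F3, and 1 and 2 at P0 and 0 and 3 at F3 of 6 tested in EG6089. lin-15B and hpl-1, which are chromatin genes as well, made up 2 of the 3 lower calls in EG6089 at F3 and both in met-2 at F15. Of the 5 genes of X signal elements and sex determination, met-2 had 0 called at P0, 1 higher at F3 and 2 higher with 1 lower at F15. The SX1263 double mutant had 1 higher at P0 and 2 at F3, sdc-2 and tra-4, and EG6089 had 1 higher at each generation. List medians were -0.39, -0.37 and 0.74 in met-2, 0.14 and 0.11 in the SX1263 double mutant, and 0.57 and 0.32 in EG6089. The gene sdc-2, which brings the dosage compensation complex to X, was higher in met-2 at F3 and F15 (0.65 and 0.75), in the SX1263 double mutant (0.66 and 1.0) and in EG6089 (0.68 and 0.58). At F3 it held 58.9, 56.5 and 67 CPM in the SX1263 double mutant and 32.6, 29.2 and 29.3 in wild type. xol-1, the switch gene of male development, held 128, 56.5 and 141 CPM in met-2 at F15 against 421, 249 and 448 (log2 change -1.78 ± 0.37 (SE), adjusted p = 0.00477). sex-1, an X signal element, was higher there (0.82).

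Among the signalling and timing genes, met-2 had 2 higher and 3 lower of 9 tested at P0, 4 and 3 at F3 and 4 and 2 of 8 at F15. The SX1263 double mutant had 3 and 1, then 5 and 1, and EG6089 2 and 2, then 2 and 4 of 7. daf-12, the steroid receptor of dauer and timing decisions, was higher in all 7 comparisons, for example 5.56, 4.51 and 3.05 CPM in the SX1263 double mutant at F3 against 0.746, 0.605 and 0.521 (log2 change 2.75 ± 0.37 (SE), adjusted p = 1.73e-05). puf-9, a Pumilio-family RNA-binding protein gene, was lower in met-2 (-2.14, -1.80 and -2.94), with 24.7, 21.7 and 32 CPM at F15 against 203, 180.0 and 218. dpy-23, the mu subunit of the AP-2 clathrin adaptor, was lower in met-2 at F3 (-0.82), higher in the SX1263 double mutant (0.89) and lower in the EG6089 one (-1.26).

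The somatic tissue lists were compared with wild type first. Of 26 neuronal genes, 2 of 11 tested were higher in met-2 at P0, 4 of 7 at F3 and 2 of 6 at F15, 5 of 11 and 3 of 7 in the SX1263 double mutant, and 1 of 4 and 0 of 3 in EG6089, with 0 lower in these 7 comparisons. unc-6 of this list was called lower in the double mutant than in met-2 at P0 and F3, and in met-2 at F15 than at F3. Of 11 muscle genes, 2 of 7, 1 of 5 and 1 of 4 were higher in met-2, 3 and 3 in the SX1263 double mutant, and 1 at P0 and 2 of 4 at F3 in EG6089, with unc-78 lower at F3. hlh-8, a muscle transcription factor gene, was called lower in met-2 at F15 than at F3 and in EG6089 wild type at F3 than at P0. Of 8 epidermal genes at most 2 were tested in met-2, and let-2, a type IV collagen gene, was called higher at P0 and F3; it is also 1 of the 2 muscle calls at P0 and the only one at F3. Several of these counts, such as 2 of 11 neuronal genes in met-2 at P0 and 1 of 5 muscle genes at F3, lie near the share of all genes called. Genes with few counts in wild type pass the filter only where they are high and can hardly be called lower than wild type. The scarcity of lower calls in these somatic lists is therefore set in part by the filter, and nothing is read from it. For the germline, of 15 autosomal sperm genes 3 of 13 were higher and 1 lower in met-2 at P0, 7 and 1 of 10 at F3 and 9 and 1 of 11 at F15, while 1 and 1 of 10 changed in the SX1263 double mutant at F3 and 1 and 1 of 3 in EG6089. Of 13 autosomal oocyte genes 0 were higher in met-2 at any generation and 0, 1 and 1 were lower, the double mutant in SX1263 had 3 lower at P0 and 5 at F3, and EG6089 had 4 lower at P0 and 4 higher with 2 lower at F3.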

How the data were processed

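Per the labels' protocols, RNA was extracted with TRIZOL and small RNA libraries were made with a NEBNext or a TruSeq kit. Each deposited file holds 1 library's raw gene counts, made by the authors with HTSeq. Per the submitters' processing notes the tools were Bowtie2, cutadapt, FastQC, HTSeq and DESeq2, with no version given, and the builds ce11 and WBcel235. The strand used in counting and any length filter are not given in the sources used here, so sense and antisense small RNAs, overlapping genes and close copies cannot be separated.

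The 5 HTSeq counter rows, 29.2 to 62.0% of records, were left out. Rows were matched to the WBcel235 annotation by identifier. Counts were tested with edgeR 4.0.16 in R 4.3.3 (robust quasi-likelihood, TMM, filterByExpr set to counts of at least 10 and totals of at least 15, Benjamini-Hochberg over all genes tested, threshold 0.05), 1 fit per background and generation, and separate fits for comparisons between generations. Alternatives were RLE scaling, no filter, DESeq2 1.42.0, protein-coding rows only, only the groups compared, a replicate block and leaving out each library. The fitting steps were run on a simulated comparison with a constant spread, few changed genes balanced in direction and no pairing. Those settings are simpler than the data, so the run checks only that the steps work. Deviations of same-numbered libraries correlated above 0.1 in every pair only at SX1263 P0, for set-25 (0.69, 0.51 and 0.30) and the double mutant (0.55, 0.30 and 0.28) against wild type and for the double mutant against met-2 (0.59, 0.22 and 0.26). Replicates of a group differed by more than counting noise in all 82 pairs. Intervals for shares of counts are not given, since reads without molecular identifiers are not independent.

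The genes and role lists were chosen with earlier results of these data known. Named were up to 6 called genes each way per genotype comparison, and up to 3 per other comparison, by size of change where groups did not overlap and the higher one averaged 5 CPM or more, the 10 most abundant genes in SX1263 wild type, up to 6 each way called in 5 comparisons, and called genes of the lists.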

Additional observations from a re-analysis of the deposited data

Results flagged for a closer look

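The effect of met-2 differed between F15 and F3 for some X-linked genes in a test of the difference made gene by gene. No test was made of the X-linked genes as a set. The signed effect was lower at F15 for 44 of 1078 X-linked genes (4.08%), beside 1.46% of all genes tested. A lower effect includes genes whose fall below wild type grew, such as Y73B3A.1. The largest differences among those named were a log2 value of -3.17 for lron-1, -2.88 for Y73B3A.1 and -2.82 for T03G6.3. The call of Y73B3A.1 alone among these 3 held without each library in turn, and the count of 44 ranged from 13 to 89.

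The effect of losing met-2 and set-25 together at F3 went up in SX1263 and down in EG6089 for some genes, with no overlap between mutant and wild type in either background. The SX1263 log2 change minus the EG6089 one was 4.61 for rpl-11.2, 3.17 for suca-1 and 2.89 for F54F7.6. This difference was not tested, since the backgrounds were counted as separate sets.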

How the results depend on the processing

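Of 8346 alternative values for 685 called gene results, 7636 stayed on their side of the threshold, 710 lost the call and 0 reversed. These results were chosen as called, and the alternatives refit the same libraries or most of them. The 0 reversals are therefore not a test of direction. Of 898 alternative values for 79 counts, medians and share differences, 791 moved little. The 791 include SX1263 treatment counts, which were 0 in the main fit and 0 without each library in turn. Such values say little about stability. EG6089 had 2134929 to 6102965 counts per library and the fewest X-linked genes tested, 815 and 794. The part of depth in this was not tested. Where a count moved, the cause was not tested.

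The replicate block gave 226 lower for met-2 at P0, 13 higher and 10 lower for set-25 at P0, 84 lower for the SX1263 double mutant at P0, 310 higher and 57 lower for double against met-2 at P0, 11 lower for set-25 at F3, and 77 higher and 97 lower for EG6089 wild type F3 against P0. It moved no other count by over 1.5 times. Over all genes at P0 it called 4606 for met-2, 269 for set-25, 5096 for the SX1263 double mutant and 3898 for double against met-2. With only the compared groups in the fit, met-2 at P0 had 133 higher, set-25 1 lower at P0 and 23 higher and 14 lower at F3, and double against met-2 121 higher and 19 lower at P0 and 137 and 17 at F3. DESeq2 gave set-25 4 higher and 6 lower at P0 and 5 and 12 at F3, EG6089 treatment at P0 3 higher, wild type F3 against P0 11 and 8, wild type F15 against F3 4 and 9, and the change of the met-2 effect from F3 to F15 2 higher and 101 lower. Without the filter, set-25 at P0 had 1 higher, EG6089 treatment at P0 7 higher and 8 lower, SX1263 wild type F3 against P0 1 higher, met-2 F15 against F3 6 higher, and EG6089 wild type F3 against P0 75 higher and, to 2 digits, 1.2e+02 lower. RLE scaling gave SX1263 wild type F3 against P0 1 higher and EG6089 wild type F3 against P0 30 lower. Protein-coding rows alone gave set-25 at P0 1 higher. In alternatives chosen after seeing the data, leaving out replicate 1 of every SX1263 P0 group gave set-25 0 higher and the double mutant 74 lower, and leaving out replicate 2 of every EG6089 P0 group moved no count by over 1.5 times.

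Medians without the filter were 0.023 and 0.044 for set-25 at P0 and F3, 0.18 for met-2 at F3, 0.42 for the SX1263 double mutant at F3, 0.34 (RLE 0.36) and 0.16 for EG6089 at P0 and F3, -0.17 for met-2 F15 against F3, and 0.18 and 0.14 for double against met-2 at P0 and F3. SX1263 wild type F3 against P0 had a median of -0.014 without the filter and -0.046 with RLE. Without the 10 most abundant genes the X share differed by -0.596 points for met-2 at F3, -1.71 at F15, -1.41 for EG6089 at F3, -1.31 for met-2 F15 against F3 and 0.0740 for EG6089 wild type F3 against P0.

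Leaving out 1 library at a time gave, as higher and lower calls, 152 to 189 and 118 to 154 for met-2 at P0, 193 to 240 and 96 to 150 at F3 and 136 to 187 and 247 to 272 at F15. For set-25 it gave 0 to 2 and 1 to 5 at P0 and 0 to 3 and 0 to 3 at F3. For the SX1263 double mutant it gave 251 to 288 and 29 to 53 at P0 and 353 to 410 and 49 to 78 at F3, and for the EG6089 one 139 to 169 and 78 to 164 at P0 and 146 to 158 and 159 to 200 at F3. For double against met-2 it gave 151 to 195 and 23 to 37 at P0 and 180 to 252 and 30 to 47 at F3. For treatment it gave 0 to 2 higher in EG6089 at P0 and 0 elsewhere. Between generations it gave 4 to 8 and 116 to 234 for met-2 F15 against F3, 20 to 44 and 6 to 76 for EG6089 wild type, 0 higher and 0 to 1 lower for SX1263 wild type F15 against F3, 0 for F3 against P0, and 0 higher and 13 to 89 lower for the change of the met-2 effect from F3 to F15. The share difference stayed negative for met-2 (-1.32 to -0.699, -1.37 to -0.801 and -2.98 to -2.56 points at P0, F3 and F15), for EG6089 (-2.30 to -1.58 and -2.22 to -1.78) and for met-2 F15 against F3 (-2.15 to -1.58), and changed sign for set-25 (-0.111 to 0.191 and -0.160 to 0.0355) and the SX1263 double mutant (-0.473 to 0.208 and -0.153 to 0.250).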
